A study of Mus musculus with 12 samples.

Results

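Cells made from mouse embryonic stem cells (mESC) by a stepwise neural protocol were compared at its last step, step 5, with and without magnetic enrichment for PSA-NCAM, a neural adhesion protein that bears chains of polysialic acid. The comparison took all 6 step 5 samples of the 12 in the series: 3 PSA-NCAM-enriched samples and 3 control samples that had not been enriched. All groups came from mESC of Actin-eGFP mice on a C57BL/6 background, grown on inactivated mouse fibroblasts that were removed before use, and passed through embryoid bodies for 4 days and selection for 6 days. Step 4 gave precursors 5 days of growth in medium holding 10 ng/ml bFGF, and in step 5 the cells were kept for 7 days without bFGF and with B27 and 200 µM ascorbic acid. The labels do not say whether the step 5 enriched cells were sorted before or after those 7 days. Each array set the Cy5-labelled RNA of 1 sample against a common Cy3-labelled mESC RNA, so every level below is a log2 ratio to mESC, and 0 is the mESC level. Differences are log2 enriched minus control with their SE from limma, n = 3 enriched and 3 control samples, and a gene was called when its Benjamini-Hochberg adjusted p was under 0.05. The series describes the 3 samples of a group as biological replicates.

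PSA-NCAM is made when the sialyltransferases St8sia2 and St8sia4 build long chains of polysialic acid on Ncam1, which weakens adhesion between cells. It is carried by migrating neuroblasts and young neurons and also by some glial precursors, and it is used as a handle to collect neuronal precursors from mixed cultures. Cultures of this kind can also hold undifferentiated stem cells, fibroblast-like cells and cells of other germ layers. In bulk RNA, a change in the number of cells of a type and a change in RNA per cell cannot be told apart.

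Of 22317 genes measured, 9027 (40.4%) were called, 4528 (20.3%) higher and 4499 (20.2%) lower in enriched cells. These are the shares beside which each list count below is to be read. At least 2-fold differences were called for 2081 genes higher and 1803 lower. The groups did not overlap for 25.6% of genes with enriched cells higher and for 25.6% with enriched cells lower. The arrays of enriched cells correlated with each other at 0.94 to 0.962. Control replicates 1 and 3 correlated at 0.918, while control replicate 2 stood apart, at 0.662 and 0.756, with lower levels of many neural genes and higher levels of endoderm genes. Without control replicate 2, 3504 genes were higher and 4060 lower, and 20 of the 41 gene lists below had a count that moved by over 1.5 times. Replicate numbers were slides. Slide 2 was scanned on another day, and its files came from another version of the feature extraction software. Without its 4 arrays 2393 genes were higher and 3377 lower, with such a move in 27 of the lists. The position on the slide followed the group, so position and group cannot be told apart. With median centring in place of loess, 5956 genes were higher and 3057 lower, and the median difference over all genes was 0.134 against -0.00871 with loess. Scale normalization between arrays left 1177 genes higher and 2105 lower, the fewest calls of the alternatives run, and a list count moved by over 1.5 times in 35 of the 41 lists.

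Among the rises with the largest log2 difference were those of Bcan, Hes5, Gad1, Zcchc12, Aldoc, Cldn11, Cntn1, Rab33a, Cnp, Aatk, Dcx, Tuba1a, Slc12a5 and Syt1, from 4.06 down to 3.35. They comprise genes of neurons (Gad1, Dcx, Syt1 and Slc12a5, a chloride transporter), of myelin (Cldn11, Cnp) and of glial cells or precursors (Aldoc, Bcan, Hes5). The falls with the largest difference were those of Arl14epl, Aqp3, Zbtb32, Fgf4, Rpl39l, Rpl10l, Mael, Fthl17d, Gm7167, Sycp1, Smc1b, Fthl17f, Fthl17e, Dazl and Tuba3a, from -5.25 to -4.21. Mael, Sycp1, Smc1b and Dazl are germ cell genes, and Fgf4 is a growth factor of mESC. The 3 Fthl17 genes are near-identical copies whose probes may not tell them apart. Without control replicate 2, the difference for Bcan was 2.65 (adjusted p = 0.1), for Zcchc12 2.67 (adjusted p = 0.08) and for Slc12a5 2.62 (adjusted p = 0.057). The Bcan call was also lost without enriched replicate 1, 2 or 3 (adjusted p = 0.057, 0.064 and 0.094), and that of Zcchc12 without enriched replicate 1 or 3 (0.059 and 0.056).

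**Figure D1:**
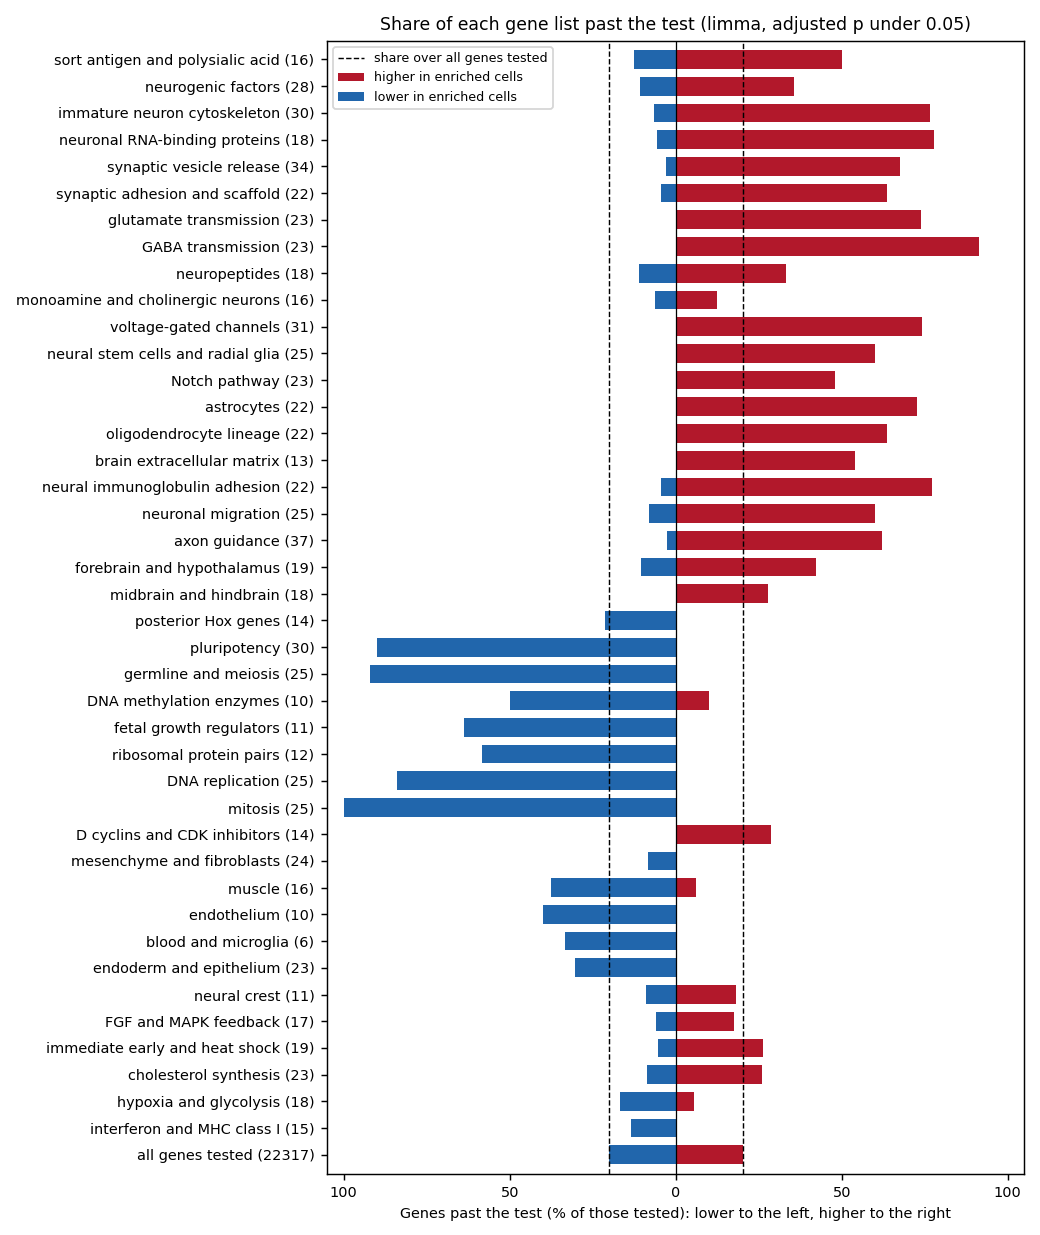
Share of the tested genes of each list that passed the limma test (adjusted p under 0.05), in percent, with genes higher in enriched cells to the right and genes lower to the left; the number tested is in brackets and dashed lines mark the shares over all genes, 20.3% higher and 20.2% lower. Lists of neurons, synapses and glia extend to the right, and those of pluripotency, germline and cell division to the left. The lists were chosen with earlier results of these data known, so the shares are descriptive.

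Genes of the sort antigen were examined first, because they bear on the label. Ncam1, the protein that carries polysialic acid, had levels of 4.03, 4.15 and 4.19 in enriched cells, against 2.88, 1.62 and 2.86 in control cells. The groups did not overlap, and control replicate 2 was lowest (difference 1.67 ± 0.43, adjusted p = 0.011). Its probe lies at chr9:49310320-49310379 on mm9, minus strand, and the other 2 Ncam1 probes gave differences of 1.68 and 2.02. St8sia4, the polysialyltransferase, had levels of 4.11, 4.04 and 3.99 in enriched cells, against 2.10, 0.33 and 1.63 in control cells. St8sia2, the polysialyltransferase of the embryonic brain, had 1.64, 1.95 and 1.69 in enriched cells, against 0.88, -0.19 and 0.74 in control cells. Neither gene overlapped between the groups, with differences of 2.69 ± 0.63 (adjusted p = 0.0071) and 1.28 ± 0.27 (adjusted p = 0.0043). Ncam2, St8sia1, St8sia3, St8sia5 and the sialidase Neu4 also rose, by 1.03, 1.23, 1.93, 2.36 and 0.48. In all, 8 of 16 tested genes of the list rose and 2 fell, with a median difference of 0.40, beside -0.01 over all genes; 5 rose and 1 fell without slide 2, and 3 rose and 1 fell with scale normalization.

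The enzymes that supply sialic acid did not share this direction. Nans, which makes the sialic acid precursor, had -1.35, -0.98 and -1.15 in enriched cells, against -0.08, -0.16 and -0.11 in control cells. All 3 enriched samples were lower than all 3 control samples (difference -1.04 ± 0.12, adjusted p = 0.00021). Gne, Nanp, Cmas and Slc35a1, which start the pathway, remove the phosphate, activate sialic acid and carry it into the Golgi, had differences of 0.11, -0.08, 0.06 and 0.11 and were not called. St8sia6 and Neu1 had 0.33 and 0.11 and were not called either. Neu3, a sialidase of the cell surface, fell by 1.12 on the log2 scale (adjusted p = 0.026), a call lost without control replicate 2 (adjusted p = 0.088), control replicate 3 (0.081), enriched replicate 1 (0.075) or enriched replicate 3 (0.059).

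**Figure D2:**
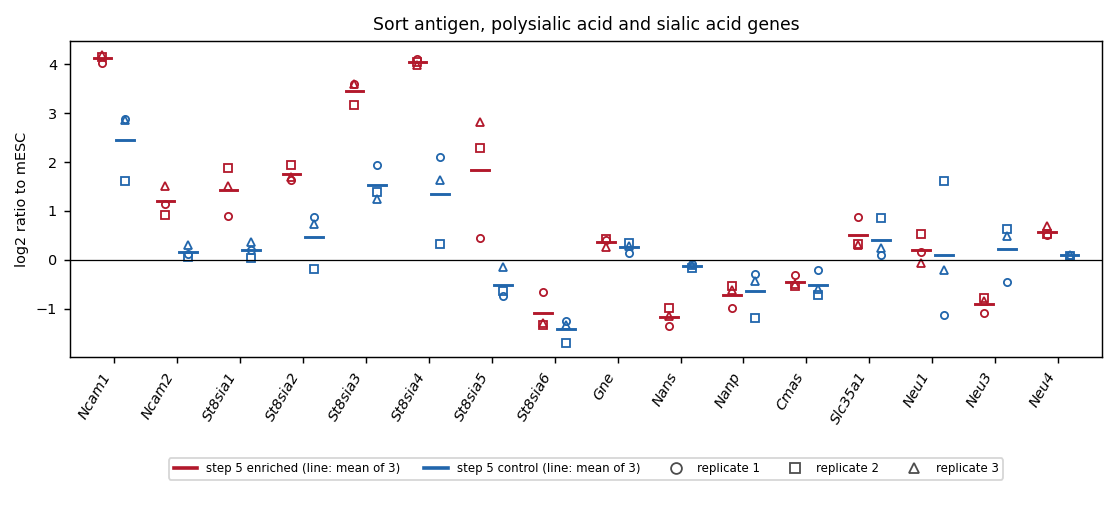
Log2 ratio to mESC of the sort antigen and sialic acid genes in each sample, enriched cells in red left of control cells in blue, with a line at the mean of 3 samples and a symbol for each replicate. Ncam1 and St8sia1 to St8sia5 are higher in enriched cells, while Gne, Nanp, Cmas and Slc35a1 overlap between the groups and Nans is lower.

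Genes of immature neurons included many that were called higher. Dcx, a microtubule protein of migrating neuroblasts, had levels of 5.00, 5.65 and 6.03 in enriched cells, against 2.71, 1.13 and 2.64 in control cells. Map2, a dendritic microtubule protein, had 4.41, 4.45 and 4.89 in enriched cells, against 2.15, 0.41 and 2.24 in control cells. Both were separated between the groups, by 3.40 ± 0.82 (adjusted p = 0.0083) and 2.98 ± 0.71 (adjusted p = 0.0076). Tubb3, the neuronal tubulin, had 2.54, 2.35 and 2.78 in enriched cells, against 1.17, -1.67 and 0.08 in control cells. It did not overlap (difference 2.70 ± 0.94, adjusted p = 0.042), but the call was lost without any 1 of control replicates 2 and 3 and enriched replicates 1, 2 and 3, with adjusted p of 0.14, 0.076, 0.088, 0.077 and 0.1. Of 30 tested cytoskeletal genes of young neurons 23 rose and 2 fell, with a median difference of 2.19; 14 rose without control replicate 2, 11 without slide 2, and 5 with scale normalization. Tuba1a, Mllt11, Dpysl2, Stmn1 and Tubb2a rose by 3.37, 3.15, 3.04, 1.73 and 2.20. The 2 that fell were Prph, an intermediate filament of peripheral neurons, by 1.33 on the log2 scale (adjusted p = 0.0019), and Nefh, the heavy neurofilament of mature axons, by 1.82 on the log2 scale (adjusted p = 0.023). The Nefh call was lost without control replicate 1 (adjusted p = 0.081), control replicate 3 (0.051), enriched replicate 2 (0.051) or enriched replicate 3 (0.089).

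Transcription factors of neurogenesis moved less uniformly. Of 28 tested, 10 rose and 3 fell, with a median difference of 0.87; leaving out 1 of the 6 arrays left between 4 and 7 that rose, with the fewest, 4, without control replicate 3, enriched replicate 2 or enriched replicate 3. Without slide 2, 3 rose and 4 fell, and with scale normalization none rose and 2 fell. Sox11 and Sox4, which act in newborn neurons, rose by 2.52 ± 0.54 and 2.03 ± 0.48 (adjusted p = 0.0045 and 0.0072), and Scrt1 by 2.52 ± 0.60 (adjusted p = 0.0076). Eomes, a factor of intermediate progenitors in cortex and also of early mesendoderm, had -2.35, -1.95 and -2.12 in enriched cells, against 0.19, -0.69 and -0.36 in control cells. The groups did not overlap, and all enriched samples were below mESC (difference -1.86 ± 0.29, adjusted p = 0.00094). Neurog1 and Neurog2 had differences of -0.14 and -0.21 and were not called.

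Of 18 tested RNA-binding proteins that shape neuronal transcripts 14 rose and 1 fell, with a median difference of 1.73; 9 rose without control replicate 2, 9 without enriched replicate 2, 2 without slide 2, and 2 with scale normalization. Srrm4, a splicing activator of neuronal microexons, had 3.22, 2.92 and 3.04 in enriched cells, against 1.46, 0.37 and 0.87 in control cells. Ptbp1, a splicing repressor that neurons shut off, had -1.52, -1.17 and -1.71 in enriched cells, against -0.01, -0.31 and -0.37 in control cells. Neither overlapped, and they moved in opposite directions, by 2.16 ± 0.46 (adjusted p = 0.0043) and -1.23 ± 0.19 (adjusted p = 0.0009). Celf2, Celf4 and Celf5 rose by 1.98, 2.38 and 2.06. Ptbp2, the neural paralog of Ptbp1, had a difference of 0.29 and was not called.

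Synaptic genes were called higher in numbers that depended on the setting. Of 34 tested genes of vesicle release 23 rose and 1 fell (median 1.27), and of 22 genes of synaptic adhesion and scaffolds 14 rose and 1 fell (median 1.57). Without slide 2, 12 vesicle genes and 6 adhesion and scaffold genes rose, and with scale normalization 7 and 4. Vamp2, a vesicle protein of membrane fusion, had 3.36, 3.26 and 3.03 in enriched cells, against 1.41, 1.13 and 1.59 in control cells. It did not overlap between the groups (difference 1.84 ± 0.20, adjusted p = 0.00015). Snap25, its partner at the plasma membrane, had 1.20, 1.34 and 1.24 in enriched cells, against 1.41, 1.12 and 1.56 in control cells. These values overlapped, all 6 lay above mESC, and Snap25 was not called (difference -0.10 ± 0.13, adjusted p = 0.58). Rab3a, Cplx1, Stx1a and Syp rose by 2.85, 2.39, 1.00 and 1.00. Gphn, the scaffold of inhibitory synapses, rose by 1.95, and Dlg4, that of excitatory synapses, by 1.80. The 2 falls, of Pclo and Shank1, were those of the brightest probe: the other 3 Pclo probes gave differences of 0.82, 1.88 and 2.27, and those of Shank1 0.10 and 0.23.

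In the main fit, inhibitory transmission had a higher share of calls than the other neuronal lists, but not in every alternative. Without enriched replicate 3, 15 of its 23 tested genes rose, against 16 of 23 glutamate genes. Of 23 tested genes 21 rose and none fell, with a median difference of 2.03; 11 rose without slide 2, and 8 rose and 1 fell with scale normalization. Gad1, which makes GABA, had 4.14, 3.11 and 3.52 in enriched cells, against 0.41, -0.69 and 0.39 in control cells. Gabrg3, a GABA receptor subunit, had 2.48, 2.08 and 2.33 in enriched cells, against 0.46, 0.29 and 0.57 in control cells. Both were far apart between the groups, by 3.55 ± 0.93 (adjusted p = 0.012) and 1.86 ± 0.17 (adjusted p = 9.3e-05). Gabrg1 and Gabra4 rose by 2.14 and 1.29, and Dlx1, a factor of forebrain interneurons, by 2.70 ± 0.60. Lhx6, a factor of interneurons from the ganglionic eminence, had a difference of -0.32 and was not called, and Dlx5 had 1.34 (adjusted p = 0.052; 0.033 with the slide as a block).

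Glutamate genes rose in 17 of 23 tested cases and none fell (median 1.16); 6 rose without slide 2 and 4 with scale normalization. The receptor subunits Gria1, Gria4, Grik4, Grik5 and Grin1 rose by 2.82, 2.63, 2.05, 1.37 and 1.02. Slc17a6, the vesicular glutamate transporter of subcortical neurons, had 2.32, 2.80 and 1.44 in enriched cells, against 1.28, 0.36 and 0.76 in control cells. The groups did not overlap but it was not called (difference 1.39 ± 0.64, adjusted p = 0.11). Voltage-gated channels rose in 23 of 31 tested cases with no fall (median 1.14); 15 rose without enriched replicate 3, 9 without slide 2, and 7 with scale normalization, where 2 fell. Scn2b, Cacna2d3, Kcnc1 and Kcnd2 rose by 1.22, 1.48, 1.62 and 2.98.

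Transmitter identities outside these lists were mixed. Of 18 tested neuropeptides 6 rose (33.3%) and 2 fell (11.1%), with a median of 0.44, beside 20.3% higher and 20.2% lower over all genes. Without slide 2 or with scale normalization 1 rose. Sst, Tac1, Penk, Npy and Cck rose by 2.36, 1.93, 1.85, 1.62 and 1.24, and Sst had 3.02, 2.85 and 3.61 in enriched cells, against 1.12, 0.17 and 1.11 in control cells. The calls for Tac1 and Cck were lost without 1 array (adjusted p = 0.058 for Tac1 without control replicate 2 and 0.053 without enriched replicate 3, and for Cck 0.08, 0.063 and 0.066 without control replicate 1, enriched replicate 1 and enriched replicate 2), and that for Sst without enriched replicate 3 (0.052). Pomc and Agrp, hypothalamic peptide precursors with opposite effects on feeding, fell by 0.73 and 1.10 on the log2 scale (adjusted p = 0.00038 and 0.00031). Of 16 monoamine and cholinergic genes 2 rose and 1 fell, beside 20.3% higher and 20.2% lower over all genes, and none rose without slide 2 or with scale normalization. Th, which starts dopamine synthesis, had 0.80, 0.98 and 0.59 in enriched cells, against 0.63, 0.05 and 0.34 in control cells. The ranges overlapped and Th was not called (difference 0.45 ± 0.25, adjusted p = 0.18). Slc18a2, the vesicular monoamine transporter, rose by 1.09 (0.056 as adjusted p without enriched replicate 3).

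Neural stem cell genes did not move as one. Of 25 tested genes of stem cells and radial glia 15 rose and none fell (median 1.28); 9 rose without control replicate 2, 9 without enriched replicate 3, 9 without slide 2, and 2 with scale normalization, where 1 fell. Lrrn1, Msi2, Sox1, Fabp5 and Cdh2 rose by 2.64, 1.21, 2.15, 2.30 and 2.27. Nes, the intermediate filament of neural precursors, had 2.35, 0.99 and 1.52 in enriched cells, against 1.83, 0.73 and 1.41 in control cells. Sox2, a factor shared by neural precursors and mESC, had -2.02, -1.67 and -1.09 in enriched cells, against -1.42, -2.09 and -1.36 in control cells. Both overlapped and neither was called, with differences of 0.30 ± 0.39 and 0.03 ± 0.27, and Sox2 was below mESC in all 6 samples. Of 23 Notch pathway genes 11 rose and none fell (median 0.67); without 1 of the 6 arrays between 5 and 9 rose, with the fewest, 5, without enriched replicate 3, and 3 rose without slide 2 or with scale normalization. Hes5, a Notch target, had 3.04, 4.74 and 5.97 in enriched cells, against 1.28, -0.58 and 1.74 in control cells. Its groups did not overlap (difference 3.77 ± 0.92, adjusted p = 0.0088), while Hes1, another target, had a difference of -0.16 and was not called.

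Genes of glial cells were called higher too. Of 22 tested astrocyte genes 16 rose and none fell (median 2.05); 8 rose without control replicate 2, 10 without enriched replicate 2, 6 without enriched replicate 3, 7 without slide 2, and 2 with scale normalization. Gjb6, a gap junction protein of astrocytes, had 1.93, 3.99 and 3.91 in enriched cells, against 0.29, 0.14 and 0.30 in control cells. Apoe, the lipid carrier that astrocytes secrete, had 1.43, 1.72 and 2.94 in enriched cells, against -0.78, -0.43 and -0.16 in control cells. Both were separated, by 3.03 ± 0.44 (adjusted p = 0.00057) and 2.49 ± 0.39 (adjusted p = 0.00086). Gjb6 had no probe well above background on all 6 step 5 arrays, and its difference was 2.18 to 6.02 over the alternatives run. Gfap, the astrocyte filament, had 5.47, 6.74 and 6.78 in enriched cells, against 4.92, 0.59 and 5.51 in control cells. The ranges overlapped, control replicate 2 was far below the rest, and Gfap was not called (difference 2.66 ± 1.05, adjusted p = 0.067). Its other probes gave 3.04 and 1.70, with adjusted p over probes of 0.046 and 0.011.

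Of 22 tested genes of the oligodendrocyte lineage 14 rose and none fell (median 1.83), and 14 rose without control replicate 2, 14 without slide 2, and 10 with scale normalization. Olig2, a factor of the lineage, had 1.10, 0.29 and 1.76 in enriched cells, against -0.53, -1.07 and -0.71 in control cells. The groups did not overlap (difference 1.82 ± 0.33, adjusted p = 0.002). Ugt8a, which makes the galactolipids of myelin, had 2.52, 2.53 and 2.87 in enriched cells, against -0.09, -0.69 and 0.47 in control cells. Cnp and Mag, both of myelin-forming cells, rose by 3.42 ± 0.47 and 3.30 ± 0.51, and Enpp6, an early marker of their maturation, by 1.84 ± 0.29. Pdgfra and Cspg4, markers of oligodendrocyte precursors, had differences of 0.89 and 0.61, and Mog, a protein of the outer myelin surface, 0.16, and none of these was called. The 3 Mbp probes disagreed: the brightest gave 0.35 and was not called, and the others gave 2.33 and -0.02.

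**Figure D3:**
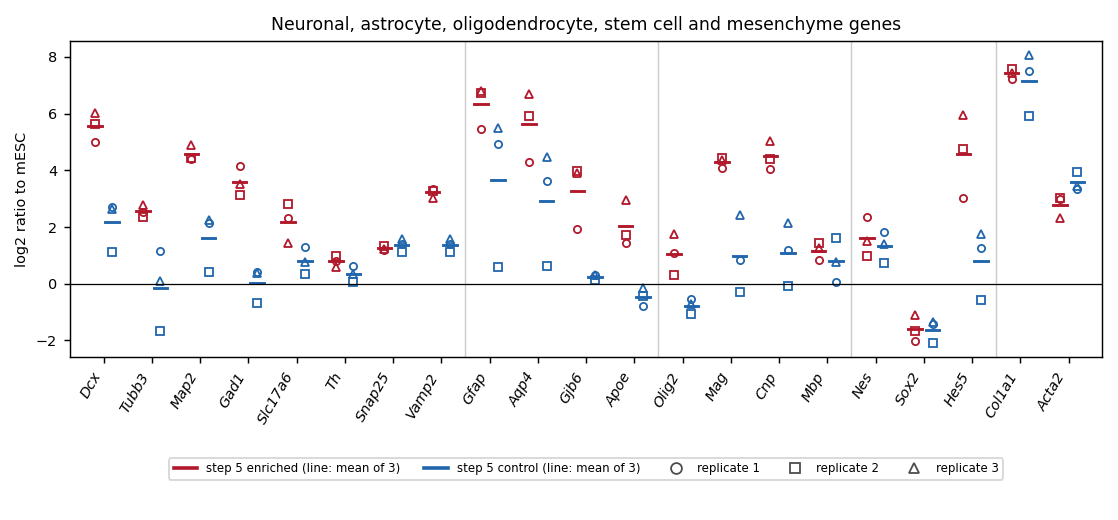
Log2 ratio to mESC of neuronal, astrocyte, oligodendrocyte, stem cell and mesenchyme genes in each sample, enriched cells in red left of control cells in blue, lines at the means of 3 samples. Dcx, Gad1, Gjb6, Mag and Cnp are separated between the groups, while Snap25, Nes, Sox2 and Col1a1 overlap.

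Surface and matrix genes that neural cells use to attach, move and steer included genes that rose. Of 22 neural immunoglobulin adhesion genes 17 rose and 1 fell (median 1.44), of 25 migration genes 15 rose and 2 fell (median 1.21), of 37 axon guidance genes 23 rose and 1 fell (median 1.07), and of 13 brain matrix genes 7 rose and none fell (median 1.06). Without slide 2 the rises numbered 11, 5, 13 and 3 in the adhesion, migration, guidance and matrix lists, and with scale normalization 8, 3, 5 and 2. Nrcam, a partner of L1-type adhesion, had 5.37, 5.58 and 5.21 in enriched cells, against 2.95, 3.09 and 2.95 in control cells. In this gene control replicate 2 lay with its group (difference 2.39 ± 0.34, adjusted p = 0.0005). Cntn1, Lsamp, Cntnap2, Cadm2 and Cntn3 rose by 3.46, 2.78, 2.58, 1.66 and 1.39, while Cntn2 fell by 0.43 on the log2 scale, a call lost without control replicate 3 or enriched replicate 1 (adjusted p = 0.057 and 0.061). Among migration genes the kinase Fyn, the receptor Erbb4, the reelin receptors Lrp8 and Vldlr and the kinase Cdk5 rose by 2.13, 2.73, 2.19, 1.76 and 1.36. Pafah1b1, the Lis1 protein, fell by 0.69 on the log2 scale with its brightest probe, while its other 2 probes gave 1.30 and 1.28. Slit1, Unc5c, Efna5, Epha4 and Plxnb1, ligands and receptors of axon guidance, rose by 1.82, 1.51, 1.52, 1.04 and 1.39. Tnr, a matrix protein of nerve tissue, rose by 1.67 ± 0.19 (adjusted p = 0.00019). Without control replicate 2, 4 matrix genes rose, as without enriched replicate 2 or 3.

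Regional factors of the forebrain and of the midbrain and hindbrain included genes that rose. Of 19 forebrain and hypothalamus genes 8 rose (42.1%) and 2 fell (median 0.58). Of 18 midbrain and hindbrain genes 5 rose (27.8%), none fell and 13 were not called (median 0.71). The share higher over all genes was 20.3%. In the midbrain and hindbrain list 2 rose without control replicate 2, enriched replicate 1 or enriched replicate 2, and 3 without enriched replicate 3. With scale normalization none rose in either list; without slide 2, 8 and 2 rose, and with the slide as a block 8 rose and 2 fell in the forebrain list and 6 rose and 2 fell in the midbrain and hindbrain list. Nkx2-1, of ventral forebrain and hypothalamus, had 2.99, 2.83 and 2.49 in enriched cells, against 1.15, 0.45 and 1.09 in control cells. It was higher in every enriched sample than in every control sample (difference 1.88 ± 0.36, adjusted p = 0.0024). Otx2, a factor of forebrain and midbrain, had a difference of 0.11 and was not called. Hesx1, of the anterior neural plate and also of mESC, had -1.82, -1.62 and -2.06 in enriched cells, against 0.60, -0.43 and 1.19 in control cells, without overlap (difference -2.29 ± 0.32, adjusted p = 0.00048). Of 14 tested genes of the posterior Hox list none rose and 3 fell (median -0.20). The share that fell was 21.4%, near the 20.2% over all genes. The 3 were Hoxc4, Hoxb9 and Hoxa7, by 1.21, 0.97 and 0.49 on the log2 scale. The Hoxa7 call was lost without control replicate 1 or 3 or enriched replicate 1 or 3 (adjusted p = 0.13, 0.062, 0.071 and 0.14).

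Pluripotency genes separated the groups in the opposite direction. Of 30 tested none rose and 27 fell, with a median difference of -3.03, with 28 falls without control replicate 2 and 17 with scale normalization. Pou5f1, which encodes Oct4, had -4.37, -2.89 and -4.85 in enriched cells, against -0.50, -0.70 and -0.86 in control cells. Esrrb had -2.69, -2.40 and -2.81 in enriched cells, against -0.98, -0.76 and -0.89 in control cells. Neither overlapped between the groups, and both were below mESC in all 6 samples (differences -3.35 ± 0.48, adjusted p = 0.00054, and -1.76 ± 0.15, adjusted p = 8.2e-05). Fbxo15, Dppa4, Tcl1 and Eras fell by 3.90, 3.12, 3.54 and 2.25 on the log2 scale. Enriched replicate 2 had the highest level of the 3 enriched samples for Pou5f1 and for Nanog, which had -5.42, -2.96 and -5.93 in enriched cells, against -0.81, -0.88 and -0.37 in control cells. Sox2 and Lefty1 were among the genes not called, with differences of 0.03 and -1.20.

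Of 25 tested genes of germline and meiosis none rose and 23 fell (92%, median -2.97), beside 20.2% lower over all genes. Also with scale normalization and without slide 2, 23 fell. Of the 25, 15 were below mESC in every enriched sample and above it in every control sample. In all, 20 were above it in every control sample. By group means, 1193 of all 22317 genes were called lower with enriched cells below mESC and control cells above it. Mael, a protein of transposon silencing, had -2.77, -0.97 and -2.62 in enriched cells, against 2.04, 2.68 and 2.18 in control cells. Sycp1, of the synaptonemal complex, had -1.38, -0.27 and -1.11 in enriched cells, against 3.29, 3.56 and 3.23 in control cells. For both genes the enriched samples were below mESC and the control samples above it, with differences of -4.42 ± 0.48 (adjusted p = 0.00015) and -4.28 ± 0.34 (adjusted p = 5.8e-05). Dazl, Ddx4 and Stra8, of germ cell specification and entry into meiosis, had mean differences of -4.22, -4.10 and -2.97. Stra8 overlapped between the groups, with 1.48 in enriched replicate 2 and 1.29 in control replicate 2. Tdrd9 and Rec8 had differences of -0.44 and -0.35 and were not called.

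The promoters of these genes were read because many germ cell genes are known to be silenced outside the germline through E-box-like motifs and DNA methylation. For 3 genes of the list the 280 bases around the start of transcription follow, 250 before and 30 after, from RefSeq (GRCm38.p6), 5′ to 3′ in the direction of the gene, with CACGTG, the E-box, in capitals.
Mael, chr1:166238715-166238994, minus strand: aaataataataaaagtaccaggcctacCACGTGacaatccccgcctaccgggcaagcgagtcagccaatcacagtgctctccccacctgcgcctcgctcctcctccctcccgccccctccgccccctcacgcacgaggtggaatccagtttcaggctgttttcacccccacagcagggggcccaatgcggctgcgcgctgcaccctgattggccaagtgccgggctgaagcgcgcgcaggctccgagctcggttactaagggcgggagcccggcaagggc
Ddx4, chr13:112652281-112652560, minus strand: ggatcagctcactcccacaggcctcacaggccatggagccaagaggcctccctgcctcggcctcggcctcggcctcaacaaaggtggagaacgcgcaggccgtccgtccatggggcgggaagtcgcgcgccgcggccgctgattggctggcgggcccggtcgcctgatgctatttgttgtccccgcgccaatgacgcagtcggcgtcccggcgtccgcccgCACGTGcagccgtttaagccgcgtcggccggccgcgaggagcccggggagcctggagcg
Stag3, chr5:138280259-138280538, plus strand: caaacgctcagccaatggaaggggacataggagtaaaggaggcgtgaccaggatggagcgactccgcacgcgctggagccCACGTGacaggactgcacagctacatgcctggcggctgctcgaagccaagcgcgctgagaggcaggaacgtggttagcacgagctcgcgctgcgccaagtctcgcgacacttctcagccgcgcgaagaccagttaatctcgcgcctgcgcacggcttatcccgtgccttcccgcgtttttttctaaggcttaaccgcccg
CACGTG, which reads the same on both strands, was in 13 of 23 promoters of the list (56.5%), beside 7.71% of 27025 promoters, and beside 8.09% in a window with 50 bases after the start, where it was also in 13 of the list. The median difference was -2.69 over the 13 genes with it, against -3.49 over the 10 without it. The 10 include Rpl10l and Rpl39l, which are also in the list of ribosomal proteins below. Over all tested genes with a promoter, 22.0% of those with CACGTG fell, against 20.2% of those without. In all, 9 motifs were searched in 2 windows and over 41 lists, the motifs reported were chosen after their shares were seen, and the matches carry no test.

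Genes of ribosomal proteins and their copies did not all move together. Of 12 tested genes of this list none rose and 7 fell (58.3%), beside 20.2% lower over all genes. The list was chosen with earlier results of these data known, so its share describes these genes and is no test. With scale normalization 4 fell. Rpl10l, a copy of Rpl10 used in testis, had -5.53, -3.83 and -5.79 in enriched cells, against 0.04, -1.31 and -0.27 in control cells. Rpl39l, a copy of Rpl39 expressed in testis and mESC, had -6.14, -4.76 and -5.89 in enriched cells, against -0.12, -3.10 and 0.10 in control cells. Both fell without overlap, by 4.54 ± 0.62 and 4.56 ± 0.72 on the log2 scale (adjusted p = 0.00042 and 0.00094). Rpl10 and Rpl39 themselves had differences of 0.27 ± 0.13 and -0.02 ± 0.11 and were not called. Rpl22, itself a ribosomal protein gene and not a copy, was called lower, with differences of -1.23 to -0.39 over the alternatives. Rpl7l1 was also called lower. Rpl3l, a muscle copy of Rpl3, fell by 1.31 on the log2 scale. Paralogs of this kind share sequence, so probes may read both.

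The DNA methylation enzymes included genes that moved in opposite directions. Dnmt3a, a de novo methyltransferase, had 3.58, 4.00 and 4.03 in enriched cells, against 2.24, 1.75 and 2.66 in control cells. Dnmt3l, its cofactor in germ cells and mESC, had -4.77, -3.86 and -5.43 in enriched cells, against -0.55, -0.87 and -1.30 in control cells. Neither overlapped, with differences of 1.65 ± 0.29 (adjusted p = 0.0018) and -3.78 ± 0.48 (adjusted p = 0.00031). Uhrf1, Tet1, Dnmt1 and Dnmt3b fell by 2.05, 1.37, 0.87 and 1.88 on the log2 scale, so that 1 of 10 tested genes rose and 5 fell (median -0.63); with scale normalization none rose and 2 fell. The Dnmt3b call was lost without control replicate 1, control replicate 2 or enriched replicate 3 (adjusted p = 0.065, 0.078 and 0.1). Of 11 fetal growth regulators none rose and 7 fell (median -1.19; 3 fell with scale normalization), among the 7 Trim71, Igf2bp1, Igf2bp2, Igf2bp3 and Hmga1, by 2.28, 1.63, 1.19, 0.99 and 0.85 on the log2 scale.

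**Figure D4:**
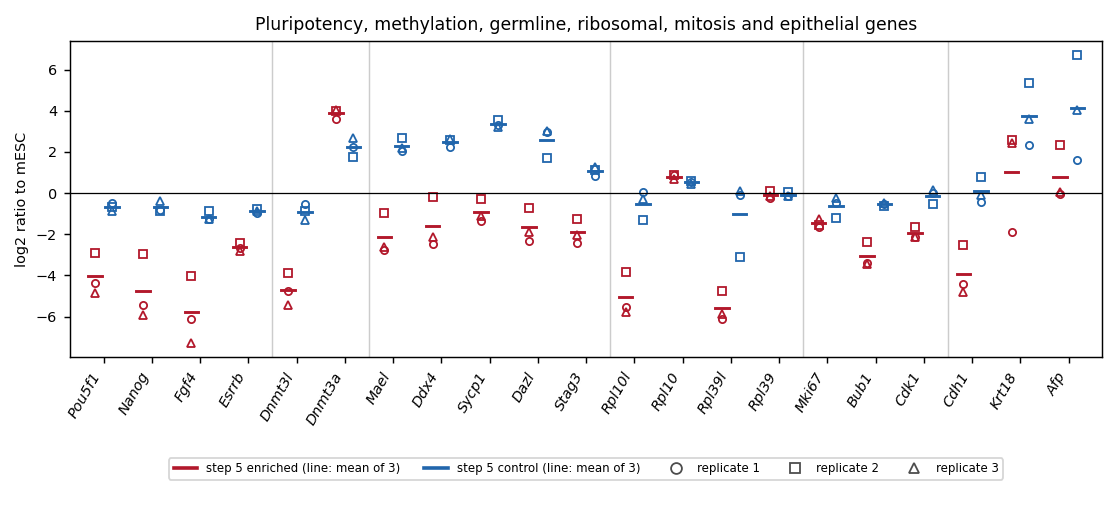
Log2 ratio to mESC of pluripotency, methylation, germline, ribosomal, mitosis and epithelial genes in each sample, enriched cells in red left of control cells in blue, lines at the means of 3 samples. The 5 germline genes lie below 0 in every enriched sample and above 0 in every control sample, and Rpl10l and Rpl39l are lower in enriched cells while Rpl10 and Rpl39 differ little.

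Cell division genes were lower in enriched cells. All 25 tested mitosis genes fell (median -1.62), as did 21 of 25 DNA replication genes (median -1.51), and these counts were 25 and 21 without slide 2 and 19 and 15 with scale normalization. Bub1, a kinase of the spindle checkpoint, had -3.40, -2.36 and -3.45 in enriched cells, against -0.55, -0.60 and -0.47 in control cells. Pola1, the catalytic subunit of the polymerase that starts DNA synthesis, had -2.04, -1.53 and -1.96 in enriched cells, against -0.22, -0.36 and -0.09 in control cells. Enriched cells lay well below mESC and control cells nearer to it, with differences of -2.53 ± 0.25 (adjusted p = 0.0001) and -1.62 ± 0.17 (adjusted p = 0.00014). Mki67, the Ki-67 antigen of cycling cells, had -1.66, -1.53 and -1.24 in enriched cells, against -0.49, -1.21 and -0.24 in control cells. It fell by 0.83 on the log2 scale (adjusted p = 0.018), a call lost without control replicate 1, control replicate 3 or enriched replicate 1 (adjusted p = 0.055, 0.064 and 0.059). A list of 14 tested genes held D cyclins and inhibitors of cyclin-dependent kinases, and also Rb1 and Rbl2 of the retinoblastoma family. Of the 14, 4 rose (28.6%) and none fell, beside 20.3% higher over all genes. Rb1, Rbl2, Cdkn2d and Cdkn1b rose by 0.86, 0.57, 0.73 and 0.63. In this list 1 rose without control replicate 1 or enriched replicate 2, and 2 without enriched replicate 1 or 3. The Rbl2 call was lost without control replicate 1 or enriched replicate 2 (adjusted p = 0.061 and 0.057), and those of Cdkn1b and Cdkn2d without any of 5 of the 6 arrays (adjusted p up to 0.12 and 0.11), the exceptions being control replicate 2 for Cdkn1b and control replicate 3 for Cdkn2d. With scale normalization none of these rose and 1 fell, with a median of -0.13 in place of 0.37, and without slide 2 none was called.

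Promoters of mitosis and replication genes are known to carry the CCAAT box and the cell cycle elements TTTGAA and TTTGGCG. The same 280-base windows of 2 mitosis genes follow with CCAAT and TTTGAA, or their reverse complements, in capitals, and those of 2 replication genes with TTTGGCG or its reverse complement in capitals (RefSeq, GRCm38.p6).
Ccnb2, chr9:70421525-70421804, minus strand: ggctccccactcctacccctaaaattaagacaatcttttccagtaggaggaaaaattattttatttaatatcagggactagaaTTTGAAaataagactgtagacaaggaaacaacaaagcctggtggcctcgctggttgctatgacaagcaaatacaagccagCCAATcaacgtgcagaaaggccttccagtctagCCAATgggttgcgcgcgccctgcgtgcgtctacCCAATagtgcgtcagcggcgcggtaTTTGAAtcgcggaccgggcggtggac
Cdc20, chr4:118437314-118437593, minus strand: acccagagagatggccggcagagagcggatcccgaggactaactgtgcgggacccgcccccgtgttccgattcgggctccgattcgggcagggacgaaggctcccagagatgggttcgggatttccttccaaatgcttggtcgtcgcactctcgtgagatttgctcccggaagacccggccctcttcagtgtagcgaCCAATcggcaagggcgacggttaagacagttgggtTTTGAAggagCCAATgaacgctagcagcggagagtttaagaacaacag
Pola1, chrX:93632126-93632405, minus strand: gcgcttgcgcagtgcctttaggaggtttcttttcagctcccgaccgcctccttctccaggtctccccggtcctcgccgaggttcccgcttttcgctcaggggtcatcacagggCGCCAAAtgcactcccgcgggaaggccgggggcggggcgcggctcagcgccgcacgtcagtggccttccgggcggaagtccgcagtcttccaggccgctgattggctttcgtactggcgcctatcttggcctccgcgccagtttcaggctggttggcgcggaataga
Mcm6, chr1:128359676-128359955, minus strand: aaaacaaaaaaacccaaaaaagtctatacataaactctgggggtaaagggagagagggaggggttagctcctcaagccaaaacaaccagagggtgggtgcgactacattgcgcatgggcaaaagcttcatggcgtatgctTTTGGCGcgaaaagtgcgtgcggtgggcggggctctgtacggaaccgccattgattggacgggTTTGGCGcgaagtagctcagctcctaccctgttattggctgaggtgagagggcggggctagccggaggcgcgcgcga
TTTGAA was in 11 of 21 mitosis promoters (52.4%), beside 19.5% of all promoters, and in the window with 50 bases after the start in 15 of 21 (71.4%), beside 20.2%. CCAAT was in 16 of 21 in either window, beside 39.7% and 41.1% of all. TTTGGCG was in 3 of 20 replication promoters (15%), beside 1.64% of all, and in the longer window in 7 of 20 (35%), beside 1.77%. The TTTGAA and TTTGGCG shares thus depended on where the window ended. Over all tested genes in the 280-base window, 25.1% of those with TTTGAA fell against 19.6% without it, and 29.5% of those with TTTGGCG against 20.2% without it. For CCAAT these shares were 21.6% and 19.5%. Some lists with rises had CCAAT about as often or more. It was in 16 of 21 promoters of neurogenic factors, 15 of 20 of neural stem cell genes and 16 of 16 of cholesterol synthesis. Others were below the share over all promoters in the 280-base window. These included synaptic adhesion and scaffolds (14.3%), glutamate transmission (20%) and the oligodendrocyte lineage (26.7%).

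Markers of other cell types were measured to describe what else the samples held. Of 24 genes of mesenchyme and fibroblasts none rose and 2 fell (8.33%, median 0.35), beside 20.3% higher and 20.2% lower over all genes. With the slide as a block 3 rose and 3 fell, and with median centring 3 rose and 1 fell. Leaving out control replicate 1 gave 2 rises and 2 falls, leaving out control replicate 3 or enriched replicate 3 gave 2 rises and no fall, and leaving out control replicate 2 or enriched replicate 2 gave no rise and 1 fall. Col1a1, a collagen of fibroblasts, had 7.23, 7.58 and 7.44 in enriched cells, against 7.50, 5.92 and 8.06 in control cells. These values overlapped and were far above mESC in all 6 samples (difference 0.25 ± 0.61, adjusted p = 0.77), and Col1a2, Col3a1 and Pdgfrb had differences of 0.20, 0.47 and 0.32. Their part in the other results was not tested. Timp1 and Acta2 fell by 1.53 and 0.81 on the log2 scale, and both calls were lost without control replicate 2 (adjusted p = 0.059 and 0.13), control replicate 3 (0.056 and 0.063) or enriched replicate 3 (0.079 and 0.15), that of Timp1 also without enriched replicate 2 (0.053). With scale normalization the list had a median of -1.02 and 9 genes that fell, and without slide 2 a median of -0.16 and 1 that fell, so the direction of its median depended on both.

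Of 23 genes of endoderm and epithelium none rose and 7 fell (30.4%, median -1.27), beside 20.2% lower over all genes. With the slide as a block 17 fell, and with scale normalization 4. Cdh1, the epithelial cadherin that mESC also carry, had -4.42, -2.54 and -4.80 in enriched cells, against -0.45, 0.76 and -0.07 in control cells. Aqp3, a water channel of epithelia, had -4.20, -2.21 and -4.04 in enriched cells, against 1.61, 1.01 and 2.07 in control cells. Both were separated, by -4.00 ± 0.67 (adjusted p = 0.0013) and -5.05 ± 0.52 (adjusted p = 0.00012). Afp, of fetal liver and yolk sac, had -0.02, 2.34 and 0.04 in enriched cells, against 1.62, 6.70 and 4.03 in control cells. The ranges overlapped, and replicate 2 was highest in both groups (difference -3.33 ± 1.21, adjusted p = 0.048, and 0.0029 with the slide as a block). Krt18 had -1.91, 2.58 and 2.42 in enriched cells, against 2.32, 5.35 and 3.59 in control cells, and was called with the slide as a block but not without (difference -2.72, adjusted p = 0.098 without it and 0.0068 with it). Without control replicate 2 or 3, 4 genes of the list fell, and without enriched replicate 1, 4 fell and 1 rose.

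Of 16 muscle genes 1 rose (6.25%) and 6 fell (37.5%), with a median of -0.79, beside 20.3% higher and 20.2% lower over all genes. Without control replicate 1 or enriched replicate 1, 3 muscle genes fell. Of 10 endothelial genes none rose and 4 fell (40%, median -0.81), and 1 fell with scale normalization. Pecam1, of endothelium and mESC, had -1.67, -1.68 and -1.68 in enriched cells, against -0.21, -0.30 and 0.02 in control cells, with no overlap (difference -1.51 ± 0.11, adjusted p = 4.8e-05). Cdh5 and Kdr, more restricted to endothelium, had differences of -0.19 and 0.04 and were not called. Myh6, Myl4 and Des, of heart and muscle, fell by 1.46, 1.91 and 1.68 on the log2 scale. Ptprc, Aif1, Cx3cr1, Lyz2, Spi1 and Tyrobp, which define blood cells and microglia, were not well above background on all 3 arrays of any group and so were not tested. Of the 6 genes of this list that were tested none rose and 2 fell (33.3%). These were Gata1 and Runx1, factors of blood formation, which fell by 0.77 and 0.83 on the log2 scale. Without control replicate 2 or 3 or enriched replicate 1 or 3, 1 gene of the list fell. Csf1r and Itgam, of blood cells and microglia, had differences of -0.35 and -0.05 and were not called. Of 11 neural crest genes 2 rose (18.2%) and 1 fell (9.09%), beside 20.3% higher and 20.2% lower over all genes. Sox10, also counted in the oligodendrocyte list, rose by 1.97. Mitf rose by 0.90, a call lost without control replicate 1 or 2 or enriched replicate 1 or 2 (adjusted p = 0.08, 0.088, 0.08 and 0.098). The gene that fell was Foxd3. It was not well above background on any enriched array and was at least 3.17-fold lower there (adjusted p = 0.0018).

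Fewer than 40.4% of genes, the share over all genes, were called in each of the signalling and metabolic lists. Of 17 FGF feedback genes 3 rose and 1 fell; none was called without control replicate 2, and 1 rose without enriched replicate 1 or 3. Of 19 immediate early and heat shock genes, which can respond to cell handling, 5 rose and 1 fell, and leaving out 1 of the 6 arrays left between 1 and 3 that rose, with 1 without control replicate 2; 1 rose without slide 2 and none with scale normalization. Fos had 2.92, 2.93 and 2.48 in enriched cells, against 0.26, 0.99 and 1.58 in control cells, without overlap (difference 1.83 ± 0.38, adjusted p = 0.0038). The part of the sort in these values was not tested. Of 23 cholesterol synthesis genes 6 rose and 2 fell (median 0.47), and 2 rose without control replicate 2 or enriched replicate 1, and 1 without slide 2. Scd2, a fatty acid desaturase of brain, had 2.77, 2.57 and 2.90 in enriched cells, against 0.20, 0.01 and 0.33 in control cells, a difference of 2.57 ± 0.31 (adjusted p = 0.00024). Of 18 hypoxia and glycolysis genes 1 rose and 3 fell, and of 15 interferon and MHC class I genes none rose and 2 fell, Bst2 by 1.68 and Oas1a by 2.59 on the log2 scale, the Oas1a call lost without control replicate 2 or enriched replicate 1 (adjusted p = 0.051 and 0.052).

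**Figure D5:**
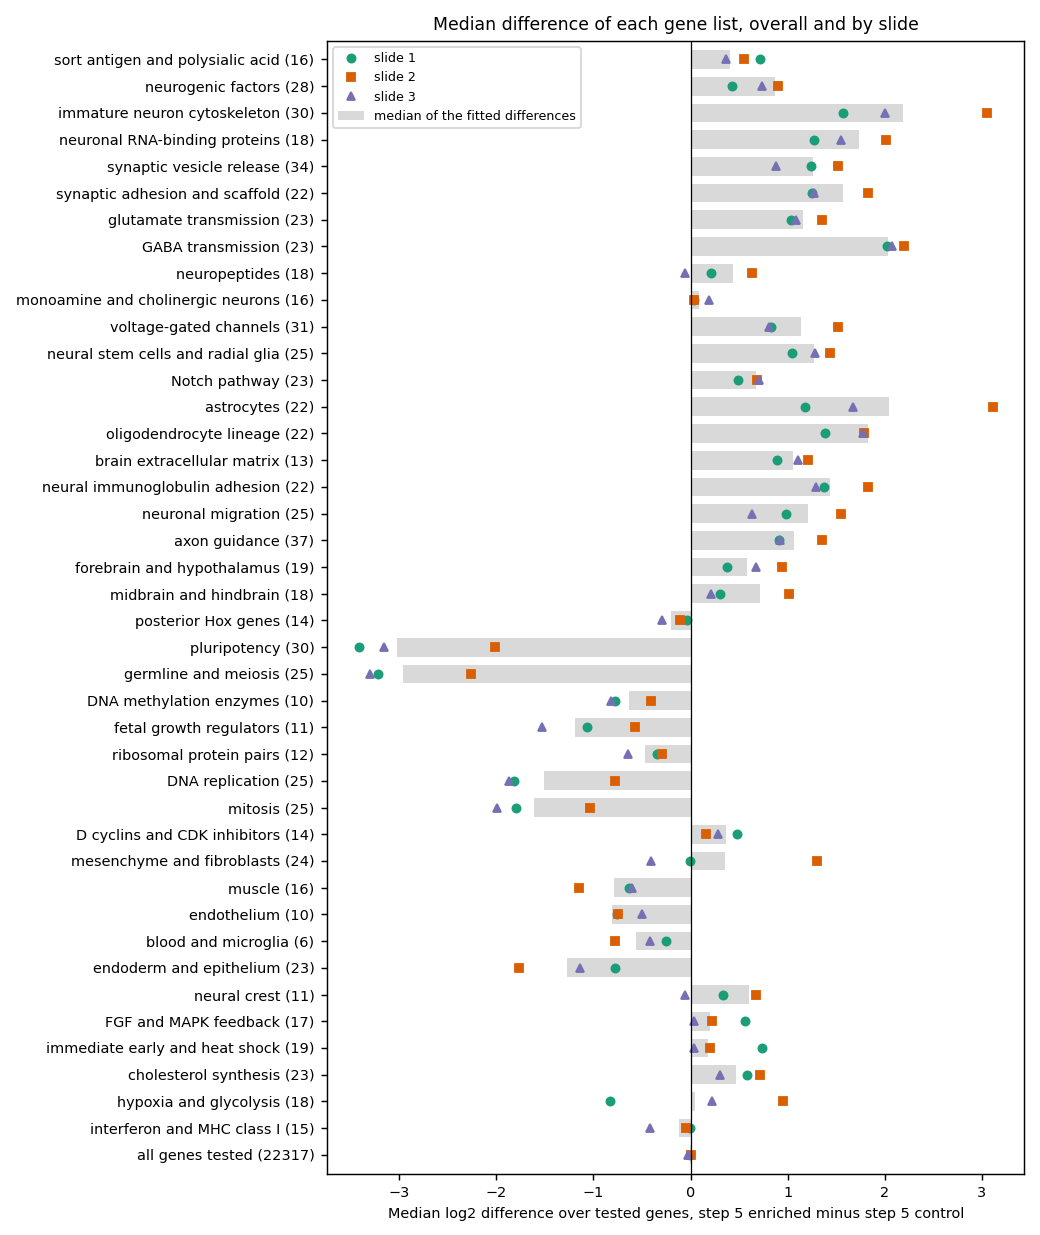
Median log2 difference, enriched minus control, over the tested genes of each list (grey bars) and the same median of the differences within slides 1, 2 and 3 (symbols); the number tested is in brackets. Slide 2, which holds replicate 2 of both groups, gives larger rises for the astrocyte and cytoskeletal lists and smaller falls for pluripotency, germline and cell division lists.

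The enrichment difference at step 5 was set against that at step 4, whose 6 arrays are others. No gene passed the limma test of the difference between steps (0 of 22317, smallest adjusted p = 0.0544), while 1574 genes had an unadjusted p under 0.05, 793 of them with a more positive difference at step 5. With array weights 64 genes passed, and without step 5 control replicate 2, 16 passed. Dcx and Pou5f1 had differences of 3.40 and -3.35 at step 5, against 2.20 and -3.78 at step 4. Myelin genes had values further apart: Mag, Cnp and Ugt8a had 3.30, 3.42 and 2.74 at step 5, against -0.10, 0.57 and -0.11 at step 4. Apoe had 2.49 at step 5, against -1.61 at step 4. Ugt8a and Apoe, each with an adjusted p of 0.0544 for the difference between steps, were chosen after their values were seen. None of these was shown to differ between steps by the test over all genes. In simulated data the test between steps recovered 36% of log2 changes of 1 and 73% of those of 2. The step 5 comparison recovered 66% and 91%. A count of 0 thus does not show that the differences at both steps are alike.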

How the data were processed

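RNA of 12 samples was measured on 2-colour Agilent arrays with probe positions on mm9, and the 6 step 5 arrays were compared. The scanner files hold spot means and local backgrounds as intensity, per the file headers, and a log ratio in log10 of processed Cy5 over Cy3, per the file headers, which was background-subtracted and dye-normalized by the software. The deposited table of log2 ratios equalled that log ratio within 0.001 for 99.4 to 99.5% of probes. Sample RNA was Cy5 and mESC RNA Cy3 on every array (0 dye swaps).

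In R 4.3.3 with limma 3.58.1, mean signals were corrected by normexp (offset 50) and normalized by loess within arrays. Without control and flagged spots, and with the mean over repeated spots, there were 39429 probes. Tested probes had Cy5 signal well above background throughout the 3 arrays of 1 group or more of the 4 (25595 to 29072 probes per array did), and the brightest probe stood for a gene. All 12 arrays entered 1 fit on 4 group means (8 residual degrees of freedom), with eBayes, two-sided tests and Benjamini-Hochberg adjustment at 0.05. Of 22317 genes 16910 had a symbol, and 90 had a missing value. Of 246 genes named by the rule below, 214 had a probe well above background on all 6 step 5 arrays. The others included Ncam2, Neu4, Gria1, Gabrg1, Gabrg3, Gabra4, Dlx1, Sst, Npy, Tac1, Gjb6, Enpp6, Tnr, Lsamp, Cadm2, Cldn11, Slc17a6, Hesx1, Hoxb9, Rpl3l, Gata1 and Foxd3. Some of their values lie near the background, so the sizes of their differences are less certain. The number of arrays limits the precision.

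Same-numbered step 5 samples deviated together (correlations 0.188, 0.324 and 0.361 over 22227 genes), so they are not independent of each other. The labels state no pairing, and the numbers are also slides, so a shared origin and a shared slide cannot be told apart. The main fit left the slide out, and the slide as a block was an alternative. A fold lower bound set a gene's mean against the lowest signal well above background. Named were all sort antigen genes, a short set of marker genes, in each list the 5 members with the smallest p in its main direction and 2 in the other, the 15 largest rises and falls with a symbol and the same sign on all 3 slides, and up to 8 genes of each sign past the test between steps (none passed); further list members are named to account for the rest, and some genes that the rule names are not reported here. Of 852 genes in 41 lists, 851 were on the array and 810 were tested. The genes and lists were chosen with earlier results of these data known. The alternatives covered background, normalization, filters, weights, probes, the deposited table and each array left out, and leaving out slide 2 was added after seeing the data. The code was tested on simulated data. Promoter motifs were searched on both strands: the E-box CACGTG and its longer form TCACGTG, the CCAAT box, the cell cycle element TTTGAA, and the E2F-type motifs TTTGGCG with its longer form TTTGGCGC, then TTTCCCGC with its core TCCCGC, and lastly GCGGGAA; some of them overlap. They were searched in windows of 300 and 280 bases; the shorter one, used for printing, was set after the shares in the longer one had been seen.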

Additional observations from a re-analysis of the deposited data

How the results depend on the processing

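The step 5 count of 9027 genes was 10468 with the slide as a replicate block, which pairs the samples, 7535 with the 6 step 5 arrays alone, 10556 with array weights and 8735 with the authors' deposited table. It was 3282 with scale normalization between arrays and 5770 without slide 2, a setting chosen after seeing the data, and leaving out 1 array gave 6840 to 9171. The cause of these shifts was not tested. For the difference between steps, the count of 0 was 0 with the block, 64 with array weights, 7 with no background correction, 1 with median centring, 1 with the deposited table and 8 with the mean over a gene's probes, and leaving out 1 array gave 0 to 16. Of 235 named genes past the test, 93 passed in the same direction in all 25 alternatives; 118 lost the call with scale normalization, 60 without slide 2, 35 without step 5 control replicate 2, and 2 with the block, Vwf and Fosb. Differences changed sign for Ephb2 (0.0198, median centring), for Irx1, Cdkn1b, Vwf and Jun (-0.0831, -0.229, 0.0402 and -0.0186, scale normalization), and for Pclo, Shank1 and Pafah1b1 (1.15, 8.8e-05 and 0.633, mean over probes).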
